A study of Mus musculus with 2 samples.

Results

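The Hox genes of the mouse lie in 4 clusters on different chromosomes and are numbered by paralogue, so that genes with the same number in different clusters are the closest relatives. All protein-coding genes named Hoxa, Hoxb, Hoxc or Hoxd followed by a number were taken, which gave 39 of the 42422 genes in the count table. In the GRCm39 build, 11 lay in the HoxA cluster (chromosome 6), 10 in HoxB (chromosome 11, bases 96085106 to 96259082), 9 in HoxC (chromosome 15, 102829538 to 102945278) and 9 in HoxD (chromosome 2, 74498654 to 74595486). They were followed in the somatic cells of foetal gonads over all 10 groups of the series.

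Hox genes encode homeodomain transcription factors that give cells along the trunk and limbs a position. Genes with low paralogue numbers are used towards the head and those with high numbers towards the tail, and Polycomb proteins keep unused parts of a cluster silent. HOX proteins bind DNA together with PBX, MEIS and PKNOX cofactors, and the genes of paralogue groups 9 to 13 are known for their roles in the kidney, the reproductive ducts and the external genitalia.

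Each library was made from the pooled gonads of E12.5 embryos from 129T2svJ Oct4-eGFP males and Swiss females, so germ cells carried GFP in every group and the GFP-negative soma was sorted. XX soma was taken uncultured or after culture of the gonads in the vehicle DMSO for 24 or 72 h. XY soma was taken in the same way and also after 24 or 72 h with 500 nM MEKi (PD0325901, an inhibitor of the kinases MEK1/2) or 500 nM FGFRi (BGJ398, an inhibitor of FGF receptors). The 40 libraries gave 4 per group. The sample description does not name XY MEKi 24 h replicate M2, which was placed by the name of its column and the study's own list of libraries; without it, 0 members were called with MEKi at 24 h, as with it. The p-values measure the spread between pools of gonads. Whole sorted soma is a mixture of supporting, interstitial, endothelial and blood cells, so fewer cells of a type and less RNA per cell cannot be told apart. Some germ cell RNA was also counted in it.

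The libraries held between 1380707 and 4836550 counts (median 2248854). These were UMI counts of transcript 3′ ends, given here as CPM, counts scaled to the library size. At this depth 3 counts stood for 0.575 to 2.32 CPM, so genes below about that level could not be followed. The markers of the labelled sexes were as the labels state: the summed level of 6 Sertoli cell genes was 1571 ± 67.6 CPM in uncultured XY and 196.5 ± 54.9 CPM in uncultured XX soma (SD, n = 4), and that of 6 pre-granulosa cell genes was 104.7 ± 10.5 and 1608 ± 174.3 CPM. Germ cell RNA differed between groups: the mean summed level of 6 germ cell genes lay between 13.97 CPM in XX DMSO 72 h and 327.9 CPM in XY MEKi 24 h. The libraries were pooled and sequenced as 2 sets: set 3 held the uncultured, DMSO 24 h and MEKi 24 h groups, and set 4 held FGFRi 24 h and every 72 h group. FGFRi 24 h against DMSO 24 h therefore crossed the sets, so that treatment cannot be told apart from set in that comparison.

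Gonadal somatic cells used the middle of the Hox clusters and left the tail ends almost silent, while the head ends differed between clusters. Of the 39 genes, 23 had enough counts to be tested, 14 had counts in some libraries but too few to test, and 2, Hoxb1 and Hoxc12, were not detected: a count of 0 in all 40 libraries together allows a level of up to 0.031 CPM, for counting error only. Between genes, levels are given as CPM per kb of exon and as plain CPM. Counts of 3′ ends do not grow with transcript length, so the per-kb scale sets genes with long exons lower. Per kb of exon, the mean over all libraries was highest for Hoxd9 (29.1), followed by Hoxc8 (12.8), Hoxc6 (12.3), Hoxd8 (11.7), Hoxd10 (10.3) and Hoxc9 (10.2). In plain CPM, Hoxd9 was at 64.0, higher than 73.8% of all genes tested, and was followed by Hoxc8 and then Hoxd8. Of the 10 highest members, 8 were the same on both scales.

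**Figure D1:**
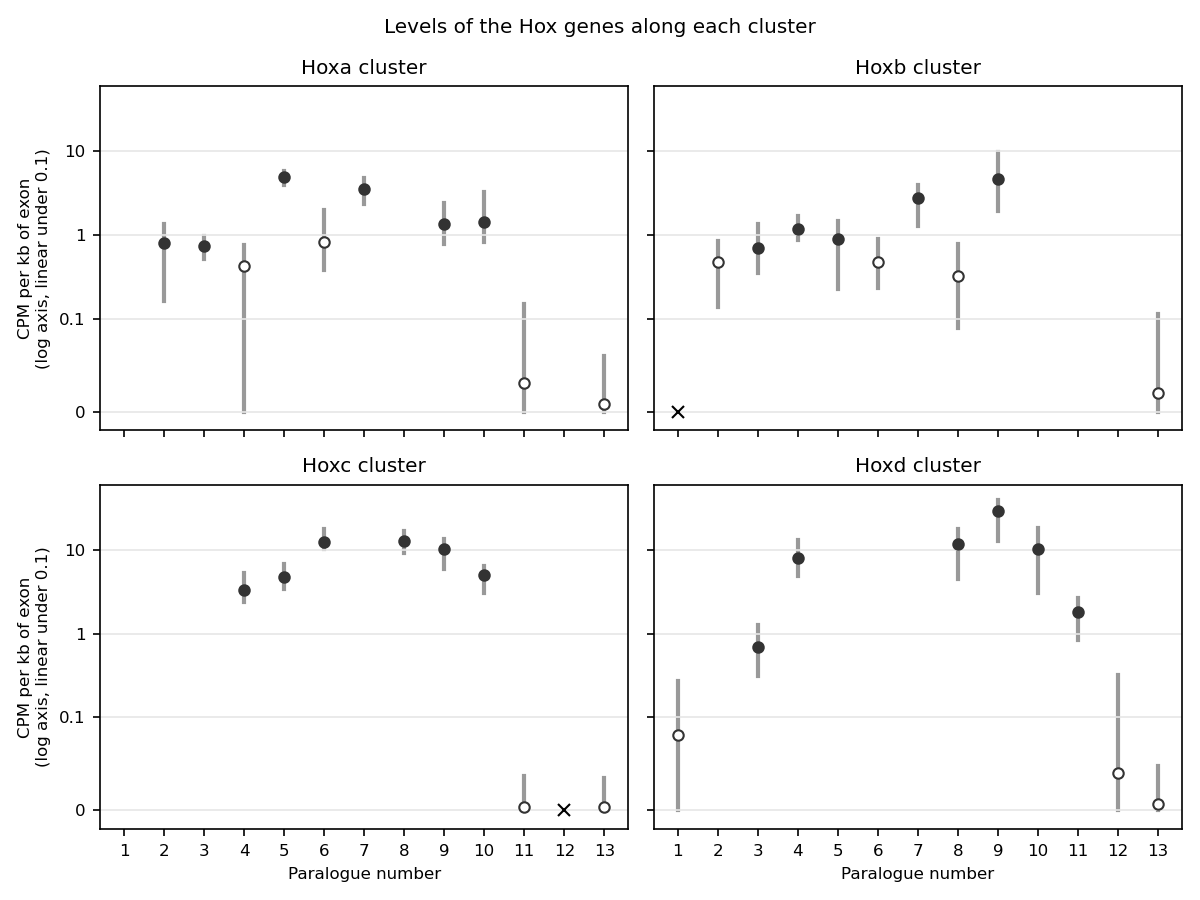
Mean level of the Hox genes over all 40 libraries (points, in CPM per kb of exon, log axis that is linear under 0.1) against paralogue number, with grey bars from the lowest to the highest of the 10 group means. Filled points are the 23 genes tested, open points 13 of those with too few counts, and crosses the 2 genes with no count; levels were highest from Hoxc6 to Hoxc9 in HoxC and at Hoxd9 in HoxD, and lay near 0 at the paralogue 12 and 13 ends.

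The silent tail ends were sharply drawn. Among the genes nearest the tail end of the clusters, Hoxa11 had 8 counts in all 40 libraries together, Hoxa13 had 3, Hoxb13 had 4, Hoxc11 had 1, Hoxc13 had 1 and Hoxd13 had 2. Hoxd11 stood apart from its paralogues Hoxa11 and Hoxc11: it had counts in all 40 libraries and a mean of 10.8 CPM. Hoxd12, its neighbour in the cluster, had 11 counts in 4 libraries, of which 7 were in XX DMSO 72 h replicate F7, 2 in replicate F4 of the same group and 1 each in 2 XY FGFRi 72 h libraries. The head ends were less uniform: Hoxd1 had 16 counts, whereas Hoxa2 was tested and Hoxc4, the lowest-numbered HoxC gene, had counts in all 40 libraries. Other untested members were Hoxa4 (69 counts), Hoxa6 (71), Hoxb2 (167), Hoxb6 (105) and Hoxb8 (89), so HoxA and HoxB had low genes between expressed ones, whereas every HoxC gene from Hoxc4 to Hoxc10 and every HoxD gene from Hoxd3 to Hoxd11 was tested.

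Reads of a few members could not be assigned with certainty. Hoxd3 and Hoxd4 share exonic bases with each other and with the annotated Gm28230 on the same strand, so their counts may be split between them. Hoxc5 and Hoxc10 share 166 exonic bases, and Hoxd10 and Hoxd11 overlap Gm28309 by 104 and 455 bases. The genes that might act upstream were scarce or broad: the 3 caudal genes (Cdx1, Cdx2 and Cdx4, known for setting posterior Hox expression) summed to between 0 and 1.45 CPM in every library and were not tested, whereas 20 of 21 Polycomb and trithorax genes were tested and their sum lay between 1211 and 1835 CPM in all libraries.

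The question of the main comparison was which Hox genes differ between XX and XY soma at each time. Hoxb9, Hoxd8 and Hoxd9 were called lower in XX than in XY soma at all 3 times, and all 6 tested HoxD genes were called lower at 24 h. Hoxc5 and Hoxc10 were called higher in XX before culture, Hoxc6 lower at 24 h and Hoxa9 lower at 72 h. A gene was called where edgeR's quasi-likelihood test gave a Benjamini-Hochberg adjusted p under 0.05 over the 15125 genes tested and the fold change was at least 1.5. In uncultured soma 5 of the 23 tested members were called, 2 higher and 3 lower in XX, where 17.3% of all tested genes were called. After 24 h of culture with DMSO 8 were called, all lower in XX (background 19.6%), and after 72 h 6 were called, all lower in XX (background 20.3%). Over the 23 members the median log2 fold change was -0.15, -0.39 and -0.40 at the 3 times, against -0.01 over all tested genes each time. By cluster, 0 to 1 of 6 HoxA, 1 of 5 HoxB and 0 to 1 of 6 HoxC genes were called lower in XX at any time, against 2, 6 and 4 of 6 HoxD genes at 0, 24 and 72 h.

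**Figure D2:**
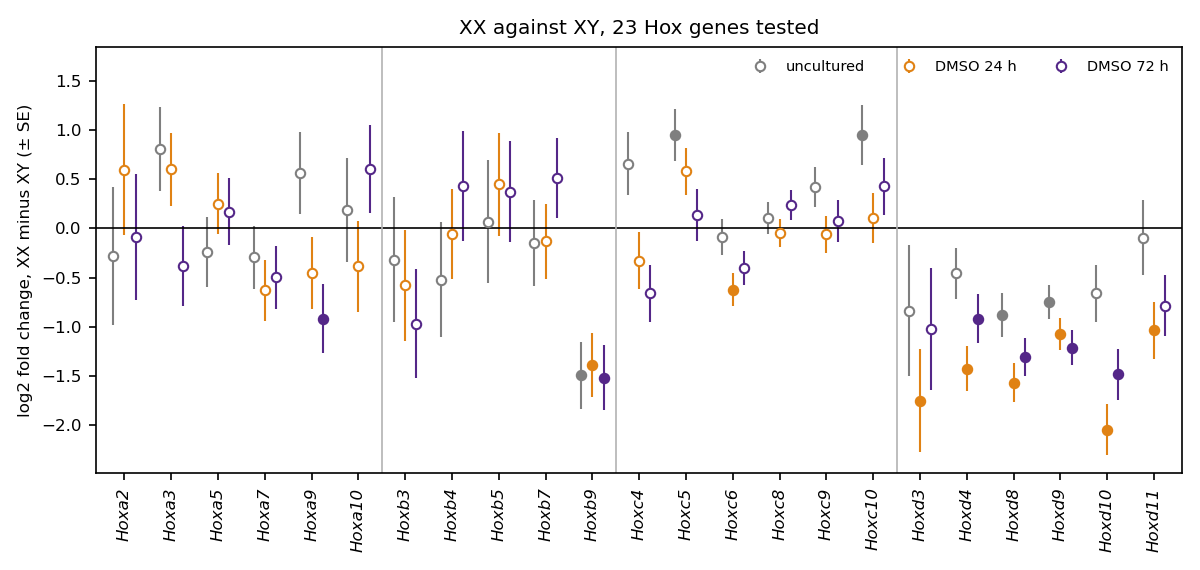
log2 fold change of XX against XY soma (points, ± SE of the edgeR fit, 4 libraries per group) for the 23 tested Hox genes in cluster and paralogue order, at 0 h (grey), 24 h (orange) and 72 h (purple); filled points were called and open points were not. All 6 HoxD genes lie below 0 at every time and Hoxb9 lies between -1.39 and -1.52, while HoxC genes scatter on both sides.

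The 4 HoxD genes called at both 24 and 72 h were Hoxd4, Hoxd8, Hoxd9 and Hoxd10. Their promoters are shown because they lie within 1 cluster and were called in the same direction at both times. Each run below is the RefSeq window from 250 bases before to 50 bases after a transcript start, taken from the RefSeq promoter table (build GRCm38.p6) and placed on GRCm39 by an exact match, on the plus strand, 5′ to 3′.
Hoxd10, chr2:74521985-74522284: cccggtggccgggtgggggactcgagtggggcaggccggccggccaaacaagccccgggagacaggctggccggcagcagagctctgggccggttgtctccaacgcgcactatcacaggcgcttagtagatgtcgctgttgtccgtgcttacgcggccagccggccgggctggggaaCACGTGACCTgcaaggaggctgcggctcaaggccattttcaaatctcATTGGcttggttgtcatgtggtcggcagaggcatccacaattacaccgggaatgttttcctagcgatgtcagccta
Hoxd9, chr2:74527857-74528156: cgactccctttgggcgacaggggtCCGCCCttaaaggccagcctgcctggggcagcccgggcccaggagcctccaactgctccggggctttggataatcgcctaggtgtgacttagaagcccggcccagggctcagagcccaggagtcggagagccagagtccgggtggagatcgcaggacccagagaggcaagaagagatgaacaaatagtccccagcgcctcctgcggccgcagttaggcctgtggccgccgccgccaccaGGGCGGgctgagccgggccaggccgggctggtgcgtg
Hoxd8, chr2:74534709-74535008: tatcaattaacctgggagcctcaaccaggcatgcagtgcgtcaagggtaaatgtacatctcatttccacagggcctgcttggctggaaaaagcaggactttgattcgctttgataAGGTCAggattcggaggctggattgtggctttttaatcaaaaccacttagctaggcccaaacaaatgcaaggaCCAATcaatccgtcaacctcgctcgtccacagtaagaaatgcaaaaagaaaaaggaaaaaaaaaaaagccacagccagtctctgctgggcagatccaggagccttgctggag
Hoxd4, chr2:74552072-74552371: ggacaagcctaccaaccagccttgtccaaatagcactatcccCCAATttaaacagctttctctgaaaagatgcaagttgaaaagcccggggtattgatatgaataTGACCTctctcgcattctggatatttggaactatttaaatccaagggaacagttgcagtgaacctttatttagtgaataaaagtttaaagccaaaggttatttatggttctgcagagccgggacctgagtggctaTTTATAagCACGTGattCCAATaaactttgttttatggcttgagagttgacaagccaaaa

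Capitals mark matches on either strand to 6 motifs, with the share of the 32841 RefSeq windows of the same length that hold a match: the TATA box TATAAA (13.6%), the CCAAT box CCAAT (37.4%), the GC box GGGCGG (35.7%), the PBX-HOX site TGATTNAT (3.22%), the nuclear receptor core motif AGGTCA (16.3%) and the E-box CACGTG (7.15%). The Hoxd10 window held 1 CCAAT box and an E-box that overlapped a nuclear receptor core motif by 2 bases. The Hoxd9 window held 2 GC boxes, and the Hoxd8 window held 1 CCAAT box and 1 nuclear receptor core motif. The Hoxd4 window held 1 TATA box, 2 CCAAT boxes, 1 nuclear receptor core motif and 1 E-box. None of the motifs was common to all 4 windows, and a match is a stretch of letters, not a bound site.

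Hoxd9, the most abundant member, was lower in XX soma at every time. In uncultured soma its level was 30.2, 40.6, 43.4 and 44.0 CPM in the XX libraries and 54.4, 66.5, 74.0 and 75.7 CPM in the XY libraries. After 24 h it was 30.4, 32.9, 38.2 and 55.9 CPM in XX and 70.8, 74.2, 89.1 and 100.7 CPM in XY. After 72 h it was 25.3, 27.2, 30.1 and 30.8 CPM in XX and 50.7, 54.9, 74.3 and 79.9 CPM in XY. XX and XY libraries did not overlap at any of the 3 times. The log2 fold changes were -0.75 ± 0.17, -1.07 ± 0.16 and -1.21 ± 0.18 (SE; adjusted p = 0.000694, 3.39e-07 and 2.93e-07, edgeR).

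Hoxd8, the neighbour of Hoxd9 towards the head end, followed the same order. The uncultured libraries were at 8.52, 10.9, 12.4 and 21.6 CPM in XX and between 24.4 and 26.2 CPM in XY. After 24 h they were at 11.2, 13.4, 15.8 and 16.0 CPM in XX and between 40.05 and 43.5 CPM in XY, the widest separation of this gene. After 72 h they were at 16.9, 17.3, 21.3 and 30.8 CPM in XX and at 46.7, 50.4, 52.0 and 60.4 CPM in XY. The groups did not overlap, with log2 fold changes of -0.88 ± 0.22, -1.57 ± 0.19 and -1.30 ± 0.19 (adjusted p = 0.00218, 3.19e-09 and 2.94e-07).

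Hoxd10, of a paralogue group known for patterning the hindlimb and its nerves, overlapped between the sexes before culture and not afterwards. Uncultured libraries were at 6.18, 6.41, 9.80 and 12.4 CPM in XX and 6.16, 9.10, 17.4 and 19.6 CPM in XY, a log2 fold change of -0.66 ± 0.29 that was not called (adjusted p = 0.097). After 24 h they were at 3.15, 5.14, 6.93 and 7.25 CPM in XX and at 22.4, 22.6, 23.4 and 25.3 CPM in XY. This was the largest difference between the sexes of any tested member, -2.04 ± 0.26 on the log2 scale (adjusted p = 6.9e-09). After 72 h XX lay between 6.58 and 13.6 CPM and XY between 19.9 and 34.3 CPM (-1.48 ± 0.26, adjusted p = 8.44e-06).

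Hoxd4, with exonic bases in common with Hoxd3, lay between 10.9 and 21.7 CPM in XX and between 36.0 and 43.0 CPM in XY after 24 h (-1.42 ± 0.23, adjusted p = 1.11e-06). After 72 h XX lay between 11.8 and 18.8 CPM and XY between 24.9 and 30.5 CPM (-0.92 ± 0.25, adjusted p = 0.00328). Before culture its groups overlapped, at 14.3 ± 3.08 CPM in XX and 20.1 ± 5.13 CPM in XY (SD, n = 4). Hoxd11 and Hoxd3 were called at 24 h. Hoxd11 was at 6.61 ± 2.73 CPM in XX and 14.2 ± 2.50 CPM in XY (-1.04 ± 0.29, adjusted p = 0.00431). Hoxd3 was at 2.64 ± 0.41 CPM in XX and 8.71 ± 4.85 CPM in XY (-1.75 ± 0.53, adjusted p = 0.00873), and without XY DMSO 24 h replicate M3, its highest library, the value was -1.35 with an adjusted p of 0.0739.

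**Figure D3:**
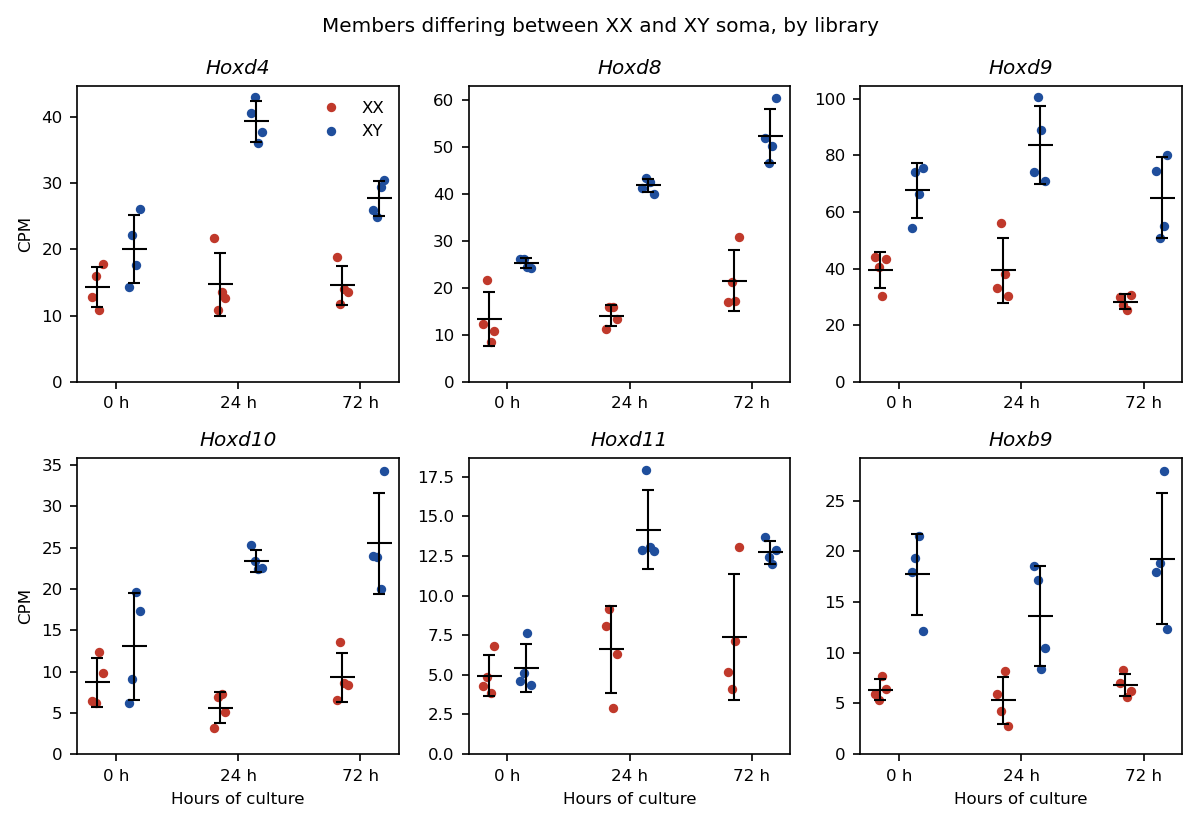
CPM of Hoxd4, Hoxd8, Hoxd9, Hoxd10, Hoxd11 and Hoxb9 in each library of XX (red) and XY (blue) soma, uncultured (0 h) and after 24 and 72 h with DMSO, with the mean and SD of the 4 libraries in black. XX and XY points of Hoxd8, Hoxd9 and Hoxb9 do not overlap at any time, and the XY points of Hoxd4, Hoxd10 and Hoxd11 stand above the XX points after 24 h.

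Outside HoxD the steadiest difference was that of Hoxb9. Its levels were 5.30, 5.98, 6.41 and 7.75 CPM in uncultured XX soma and 12.2, 17.9, 19.3 and 21.5 CPM in uncultured XY soma. After 24 h they were 2.77, 4.21, 5.96 and 8.22 CPM in XX and 8.43, 10.5, 17.1 and 18.5 CPM in XY. After 72 h they were 5.66, 6.26, 7.05 and 8.27 CPM in XX and 12.4, 18.0, 18.9 and 27.9 CPM in XY. No XX library reached an XY library of the same time. The log2 fold change was -1.49 ± 0.34, -1.39 ± 0.33 and -1.52 ± 0.33 (adjusted p = 0.000539, 0.000732 and 0.000246). Among its paralogues, Hoxc9 was at 37.4 ± 5.36 CPM in XX and 28.2 ± 7.83 CPM in XY before culture and was not called at any time (adjusted p = 0.147, 0.863 and 0.839). Hoxa9 was called at 72 h, at 2.36, 4.18, 6.58 and 12.8 CPM in XX and 11, 11.4, 13.0 and 18.1 CPM in XY, which overlapped (-0.92 ± 0.35, adjusted p = 0.0442). The Hoxa9 call was lost without XX replicate F4, F8 or F11 (-0.68, -0.76 and -0.89, adjusted p = 0.168, 0.13 and 0.0828) and without XY replicate M5 or M6 (-0.93 and -0.74, adjusted p = 0.0622 and 0.155).

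HoxC genes were the larger part of Hox RNA in XX soma and HoxD genes in XY soma. The summed level of the 9 HoxD genes was 71.3 to 92.0 CPM in XX and 105.7 to 153.5 CPM in XY before culture, 70.8 to 101.2 against 187.8 to 243.6 CPM after 24 h, and 77.2 to 99.7 against 163.5 to 221.8 CPM after 72 h. The summed level of the 9 HoxC genes was 130.7 to 167.4 CPM in XX and 96.2 to 123.3 CPM in XY before culture, and the sexes overlapped at 24 h (140.7 to 166.3 against 145.4 to 184.7 CPM) and at 72 h (119.3 to 134.9 against 118.3 to 142.6 CPM). HoxC made up 49.5% of Hox CPM in uncultured XX soma and 35.0% in uncultured XY soma, and HoxD made up 29.2% and 42.6%.

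The members called higher in XX were Hoxc5 and Hoxc10, before culture. They share exonic bases, so their reads could not be assigned between them with certainty. Hoxc5 was at 14.7, 21.7, 22.1 and 24.3 CPM in XX and 6.67, 6.83, 13.9 and 14.3 CPM in XY (0.95 ± 0.26, adjusted p = 0.00493). Hoxc10 was at 9.80, 11.1, 13.9 and 15.0 CPM in XX and 2.28, 5.74, 8.21 and 8.70 CPM in XY (0.95 ± 0.31, adjusted p = 0.0182). Neither gene overlapped between the sexes. The Hoxc10 call was lost without XX replicate F3 (0.83, adjusted p = 0.0727) or XY replicate M3 or M5 (0.69 and 0.89, adjusted p = 0.113 and 0.053). After 24 and 72 h neither was called (adjusted p = 0.0633 and 0.75 for Hoxc5, and 0.814 and 0.289 for Hoxc10). Hoxc6 was called lower in XX at 24 h, at 23.3 to 34.8 against 35.6 to 49.8 CPM (-0.62 ± 0.16, adjusted p = 0.00247), and fell under 1.5-fold without XX replicate F9 or XY replicate M3 or M4 (-0.55, -0.57 and -0.57). Hoxc8, the second most abundant member, was not called at 0, 24 or 72 h (0.10 ± 0.16, -0.05 ± 0.14 and 0.24 ± 0.16, adjusted p = 0.72, 0.853 and 0.268).

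Under the stricter test used in the study's methods, voom with quality weights and treat against a 1.5-fold change, no member was called before culture. At 24 h Hoxd4, Hoxd8, Hoxd9 and Hoxd10 remained (adjusted p = 0.00424, 0.000321, 0.0432 and 0.00015), and at 72 h Hoxd8, Hoxd9 and Hoxd10 remained (adjusted p = 0.00545, 0.0321 and 0.0137), whereas Hoxb9 missed the threshold (adjusted p = 0.199, 0.378 and 0.0926 at the 3 times). Leaving out a library also added calls. Before culture, Hoxd10 was called without XX replicate F4 or XY replicate M2 (-0.82 and -0.90, adjusted p = 0.0484 and 0.0163) and Hoxc9 without XY replicate M2 (0.59, adjusted p = 0.0472). Hoxc5 was called at 24 h without XX replicate F4 (0.71, adjusted p = 0.0306). At 72 h Hoxd11, which edgeR with TMM did not call, was called by DESeq2 (-0.80, adjusted p = 0.0446), with RLE scaling (-0.79, adjusted p = 0.0499) and without XX replicate F8 (-1.16, adjusted p = 0.00677), Hoxb3 without the same replicate (-1.60, adjusted p = 0.0491), and Hoxc4 without XX replicate F11 or XY replicate M4 (-1 and -0.81, adjusted p = 0.0136 and 0.0416).

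Markers of several cell types differed between the sexes beside these genes. Of 5 interstitial progenitor genes, Nr2f2 and Pdgfra among them and all tested, 3, 4 and 4 were called lower in XX at 0, 24 and 72 h, and their summed level was 637 to 785 CPM in XX against 1097 to 1308 CPM in XY before culture, 526 to 734 against 1410 to 1633 CPM after 24 h and 737 to 964 against 1638 to 2119 CPM after 72 h. Of 6 endothelial genes 3, 5 and 0 were called lower in XX at 0, 24 and 72 h (107 to 148 against 168 to 198 CPM before culture and 90.5 to 117 against 166 to 226 CPM at 24 h). Of 5 erythroid genes 2, 5 and 2 were called lower, and at 24 h their sum was 610 to 1649 CPM in XX and 2004 to 4255 CPM in XY. Of 4 tested foetal Leydig cell genes 3, 3 and 2 were called lower and 1 higher at 72 h, with sums at 24 h of 152 to 194 CPM in XX and 634 to 941 CPM in XY. Of 4 tested germ cell genes 4 were called lower before culture, 2 higher at 24 h and 2 lower at 72 h, with sums before culture of 49.5 to 68.8 CPM in XX and 145 to 233 CPM in XY. Of 4 tested coelomic epithelium genes 4, 2 and 3 were called higher in XX. Of 3 tested neural crest or neuron genes 1, 2 and 2 were called lower and 1 higher before culture, and no macrophage gene was called. Of 7 mesonephros or duct epithelium genes, 5 were tested and 3 were called higher in XX each time, and none lower. The median log2 fold change of the tested ones was 1.08, 0.88 and 0.92 at 0, 24 and 72 h. Emx2, which the gonad itself expresses, gave most of that list's sum (300.3 of 349.2 CPM in uncultured XX soma). Pax2 stayed between 0 and 0.84 CPM in the group means, too low to be followed at this depth. The part of these cells in the Hox differences was not tested.

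The cofactors of HOX proteins also differed between the sexes. Of 9 such genes 8 were tested; 1 was called higher in XX at every time and 3 lower at 24 and 72 h. Meis2 was at 65.9 CPM in XX and 116.3 CPM in XY after 24 h (-0.82 ± 0.13, adjusted p = 4.92e-07). Pbx3 went the other way, at 62.5 CPM in XX and 27.8 CPM in XY before culture (1.17 ± 0.19, adjusted p = 1.15e-06). Inside the HoxD cluster, the long non-coding RNA Gm14396, between Hoxd10 and Hoxd9, was at 2.20 CPM in XX and 5.44 CPM in XY after 24 h (-1.34 ± 0.43, adjusted p = 0.016). Of the protein-coding neighbours of HoxD, Lnpk was lower in XX at 72 h (14.5 against 24.6 CPM, -0.78 ± 0.22, adjusted p = 0.00608).

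The next question was how Hox levels changed over the first 24 h of culture, which was measured within set 3. In XY soma 3 of 6 tested HoxC genes and 4 of 6 tested HoxD genes were called higher, and in XX soma no member was called. In XY 7 of 23 members were called, all higher after 24 h, where 14.4% of all tested genes were called, and the median log2 fold change of the 23 was 0.37 against 0.03 over all tested genes. In XX 0 members were called by edgeR (background 7.73%), with 1 at an unadjusted p under 0.05, and 0 by DESeq2 or voom with treat. All 6 HoxC and all 6 HoxD genes had positive values in XY, and 3 of 6 in each of these clusters in XX, and a shift of a cluster was not tested.

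Hoxd11 rose most in XY, from 4.35, 4.62, 5.12 and 7.65 CPM to 12.8, 12.8, 13.0 and 17.9 CPM (1.38 ± 0.32, adjusted p = 0.000846). Hoxd4 rose from 14.4, 17.7, 22.2 and 26.1 CPM to 36.0, 37.7, 40.6 and 43.0 CPM (0.96 ± 0.23, adjusted p = 0.00111). Hoxd8 rose by 0.73 ± 0.19 (adjusted p = 0.00293) and Hoxd10 by 0.81 ± 0.24 (adjusted p = 0.0104) on the log2 scale. None of these 4 genes overlapped between the uncultured and cultured XY libraries. In HoxC, the called genes were Hoxc6 (0.70 ± 0.17, adjusted p = 0.00168), Hoxc8 (0.62 ± 0.15, adjusted p = 0.00172) and Hoxc10 (0.92 ± 0.29, adjusted p = 0.017). Hoxd9 was at 67.6 ± 9.69 CPM before and 83.7 ± 13.8 CPM after 24 h (SD, n = 4) and was not called (0.31 ± 0.16, adjusted p = 0.15).

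Several of these calls rested on single libraries. Without uncultured XY replicate M2, Hoxc6 and Hoxc8 fell under 1.5-fold (0.56 and 0.55) and Hoxd10 was at 0.58 (adjusted p = 0.0915). Without uncultured replicate M3, Hoxd10 was at 0.68 (adjusted p = 0.0562) and Hoxc10 at 0.67 (adjusted p = 0.114). Without DMSO 24 h replicate M4, Hoxc10 was at 0.83 (adjusted p = 0.0623) and Hoxc8 at 0.57, the value it also had without DMSO 24 h replicate M3. Hoxd4, Hoxd8 and Hoxd11 were called whichever of the 8 libraries was left out, and no member was called by voom with treat. Hoxd3 was called without DMSO 24 h replicate M5 (1.41, adjusted p = 0.0467).

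**Figure D4:**
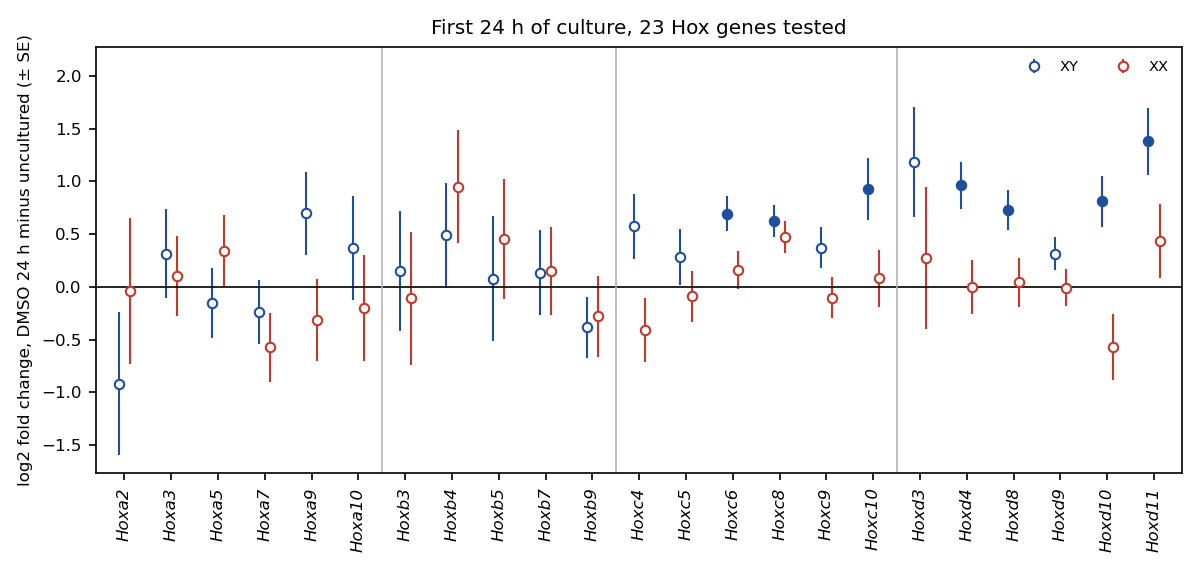
log2 fold change from uncultured to DMSO 24 h soma (points, ± SE of the edgeR fit, 4 libraries per group) of the 23 tested Hox genes in XY (blue) and XX (red); filled points were called. The 7 called genes lie between 0.62 and 1.38 in XY and are Hoxc6, Hoxc8, Hoxc10, Hoxd4, Hoxd8, Hoxd10 and Hoxd11, and none was called in XX.

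None of the 3 most abundant members was called in XX soma. Hoxd9 was at 39.5 ± 6.39 CPM before and 39.4 ± 11.5 CPM after 24 h (adjusted p = 0.99), and Hoxd8 at 13.4 ± 5.74 and 14.1 ± 2.26 CPM (adjusted p = 0.938). Hoxc8 passed the adjusted p in XX but not the fold (0.47 ± 0.15, adjusted p = 0.0323), at 28.6, 28.7, 36.6 and 47.7 CPM before and 44.0, 48.6, 50.1 and 55.2 CPM after 24 h, and was called without XX uncultured replicate F3 (0.65, adjusted p = 0.00519). Whether XX and XY soma differed in the change itself was tested as an interaction, in which 1 member was called (background 6.20%). Hoxd10 changed by 1.38 less in XX than in XY on the log2 scale (-1.38 ± 0.40, adjusted p = 0.0215). The Hoxd10 interaction was not called without any of 5 of the 16 libraries, namely XX uncultured F4 and F5 (-1.24 and -1.28), XY uncultured M2 and M3 (-1.16 and -1.26) and XX DMSO 24 h F4 (-1.19), with adjusted p between 0.0509 and 0.0695. Hoxd4 (-0.97 ± 0.35, adjusted p = 0.086) was called in the interaction without XY uncultured replicate M6 or XX DMSO 24 h replicate F4 (-1.14 and -1.23, adjusted p = 0.0479 and 0.0236). All 6 HoxC and all 6 HoxD values of the interaction were negative. Over the 23 members 17 were negative, with a median of -0.37 against 0.0002 over all tested genes, and a shift of the set was not tested. The values of the 3 most abundant members were -0.32 for Hoxd9, -0.15 for Hoxc8 and -0.69 for Hoxd8 (adjusted p = 0.532, 0.791 and 0.19).

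Markers of other cells moved with the first 24 h of culture as well. In XY 3 of 6 Sertoli cell genes were called lower (1498 to 1643 CPM before and 757 to 1214 CPM after 24 h), and in XX 1 was called higher. Of 4 tested foetal Leydig cell genes 3 were called higher in XY (154 to 302 CPM before and 634 to 941 CPM after), and in XX 2 were called higher and 1 lower. Of 6 pre-granulosa cell genes 4 were called higher and 1 lower in XY (92.6 to 117.5 CPM before and 170.5 to 204 CPM after), and 1 each way in XX. Of 4 tested coelomic epithelium genes 3 were called higher in XY and 2 in XX. Of 4 tested germ cell genes 2 were called lower in XY and 3 higher in XX, and of 4 tested macrophage genes 2 were called lower in both sexes. All 5 erythroid genes were called lower after 24 h in both sexes, and their sum fell from 6574 to 8786 CPM to 2004 to 4255 CPM in XY and from 3792 to 7016 CPM to 610 to 1649 CPM in XX. Of 5 interstitial progenitor genes 2 were called higher in XY and 0 in XX. The part of these cells in the Hox changes was not tested. Of the cofactors, Pbx3 and Pknox1 were called higher after 24 h in XY, and Gm14396 rose from 1.15 to 5.44 CPM (2.28 ± 0.52, adjusted p = 0.000821).

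From 24 to 72 h, the change in the difference between XX and XY was tested as an interaction, since these times were sequenced in different sets and levels could not be compared directly. No member was called (background 2.04%, edgeR; 0 members at an unadjusted p under 0.05, and 0 by DESeq2). The values were -0.14 ± 0.24 for Hoxd9, 0.29 ± 0.21 for Hoxc8 and 0.26 ± 0.28 for Hoxd8 (adjusted p = 0.905, 0.657 and 0.806).

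The remaining comparisons asked which Hox genes respond in XY soma when MEK1/2 or FGF receptors are inhibited. After 72 h with MEKi, Hoxb9 was lower and Hoxa10 higher, and none of the 6 tested HoxD genes was called. At 72 h 2 of 23 members were called against DMSO (background 6.47%), and at 24 h 0 were called by edgeR (background 3.27%), with 2 at an unadjusted p under 0.05, and 0 by DESeq2.

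**Figure D5:**
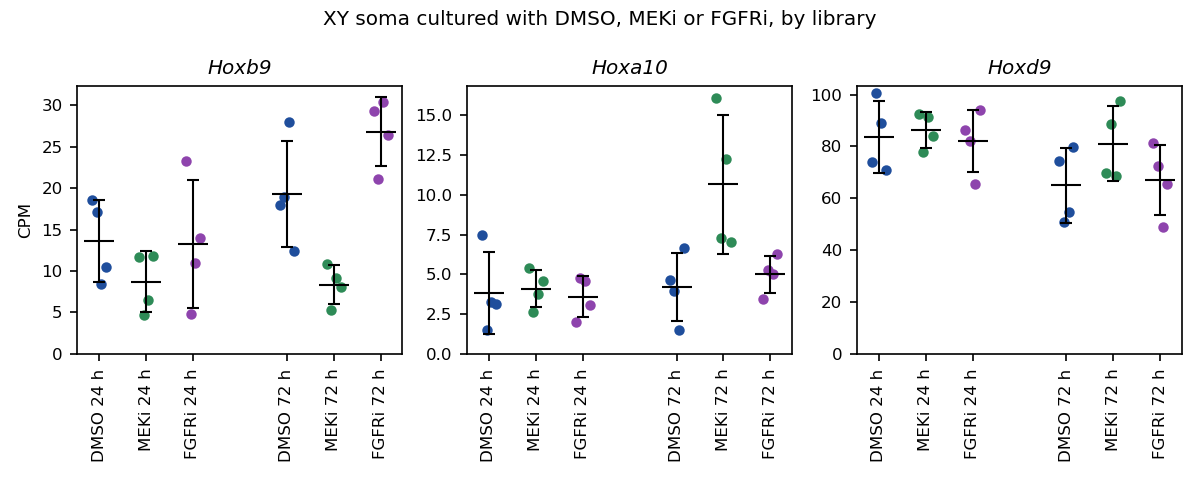
CPM of Hoxb9, Hoxa10 and Hoxd9 in each XY library after 24 or 72 h of culture with DMSO (blue), MEKi (green) or FGFRi (purple), with the mean and SD of the 4 libraries in black. After 72 h the MEKi libraries of Hoxb9 (5.35 to 10.9 CPM) lie below those of DMSO and FGFRi, the MEKi libraries of Hoxa10 lie above those of DMSO, and Hoxd9 overlaps between treatments.

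Hoxb9 was at 12.4, 18.0, 18.9 and 27.9 CPM with DMSO and at 5.35, 8.09, 9.11 and 10.9 CPM with MEKi after 72 h. The groups did not overlap, and the log2 fold change was -1.20 ± 0.31 (adjusted p = 0.00765), called whichever of the 8 libraries was left out but not by voom with treat (adjusted p = 0.932). With MEKi its levels overlapped those of XX DMSO 72 h soma, at 5.66 to 8.27 CPM. After 24 h Hoxb9 was at 4.65, 6.51, 11.7 and 11.8 CPM with MEKi and 8.43, 10.5, 17.1 and 18.5 CPM with DMSO, which overlapped (-0.62 ± 0.32, adjusted p = 0.325). Hoxb7 was not called, at 1.97 ± 1.47 CPM with MEKi and 4.88 ± 0.97 CPM with DMSO after 24 h (-1.30 ± 0.45, adjusted p = 0.0937). All 5 tested HoxB genes had negative values at 24 h, as had 5 of 6 in each of the other clusters. Over the members 20 of 23 were negative, with a median of -0.33 against -0.006 over all tested genes, and a shift of the set was not tested. At 72 h 4 of 5 HoxB genes and 3 of 6 in each other cluster were negative, and the summed level of the 10 HoxB genes was 12.6 to 22.5 CPM with MEKi and 27.6 to 42.0 CPM with DMSO after 24 h, and 18.0 to 24.2 against 27.1 to 52.9 CPM after 72 h.

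Hoxa10, a gene known for its role in the uterus and in testicular descent, was at 1.496, 3.98, 4.67 and 6.66 CPM with DMSO and at 7.01, 7.26, 12.2 and 16.1 CPM with MEKi after 72 h. The groups did not overlap (1.32 ± 0.42, adjusted p = 0.0313). The call was lost without DMSO replicate M2, M4 or M5 (1.38, 1.30 and 1.07, adjusted p = 0.0692, 0.0695 and 0.108) and without MEKi replicate M2 or M4 (1.07 and 1.24, adjusted p = 0.132 and 0.0869), and voom with treat did not give it (adjusted p = 1). After 24 h Hoxa10 was at 4.09 ± 1.16 CPM with MEKi and 3.84 ± 2.56 CPM with DMSO.

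The abundant members gave small values with MEKi. Hoxd9 was at 81.1 ± 14.4 CPM with MEKi and 65.0 ± 14.4 CPM with DMSO after 72 h (0.31 ± 0.16, adjusted p = 0.22), and its value at 24 h was 0.04 ± 0.15 (adjusted p = 0.942). Hoxd8 gave -0.13 ± 0.18 at 24 h and -0.04 ± 0.18 at 72 h (adjusted p = 0.807 and 0.906). Hoxc8 passed the adjusted p at 24 h but not the fold (-0.53 ± 0.15, adjusted p = 0.0272), at 25.9, 34.6, 36.5 and 44.0 CPM with MEKi and 44.6, 45.1, 57.1 and 57.4 CPM with DMSO. It was called with the total count as library size (-0.59, adjusted p = 0.0185) and without DMSO replicate M2 or MEKi replicate M1 (-0.59 and -0.65), and at 72 h it gave -0.16 ± 0.16 (adjusted p = 0.546). Hoxb7 was called at 24 h without MEKi replicate M1 (-1.82, adjusted p = 0.0366) and Hoxb5 without MEKi replicate M4 (-3.25, adjusted p = 0.046), and at 72 h Hoxa2 was called without MEKi replicate M2 (-2.90, adjusted p = 0.0392) and Hoxc4 without MEKi replicate M2 or DMSO replicate M4 (-0.96 and -0.91, adjusted p = 0.0454 and 0.05). The effect of MEKi at 72 h was compared with that at 24 h as an interaction, and 0 members were called by edgeR (background 1.41%), with 1 at an unadjusted p under 0.05, and 0 by DESeq2 (0.26 ± 0.22 for Hoxd9, 0.37 ± 0.22 for Hoxc8 and 0.09 ± 0.25 for Hoxd8).

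With FGFRi after 72 h 0 members were called by edgeR (background 1.80%), with 5 at an unadjusted p under 0.05 (Hoxc4, Hoxc6, Hoxc8, Hoxd4 and Hoxd8, named after their values were seen), and 0 were called by DESeq2. The 5 had negative values, and the median over the 23 members was -0.41 against -0.0004 over all tested genes, with 16 of 23 negative. Whether the members moved as a set was not tested. Hoxd4 came nearest, at 7.88, 17.2, 18.2 and 23.03 CPM with FGFRi and 24.9, 26.0, 29.4 and 30.5 CPM with DMSO (-0.77 ± 0.24, adjusted p = 0.0729). It was called without FGFRi replicate M2 (-0.94, adjusted p = 0.0296). Hoxd9 was at 67.0 ± 13.6 CPM with FGFRi (0.03 ± 0.16, adjusted p = 0.971), Hoxc8 gave -0.43 ± 0.16 (adjusted p = 0.167) and Hoxd8 -0.41 ± 0.18 (adjusted p = 0.253).

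MEKi and FGFRi were set against each other at 72 h, and 1 member was called (background 6.43%). Hoxb9 was at 21.1, 26.4, 29.4 and 30.4 CPM with FGFRi and 5.35, 8.09, 9.11 and 10.9 CPM with MEKi, groups that did not overlap (-1.68 ± 0.30 for MEKi minus FGFRi, adjusted p = 8.12e-05). It was called with each library left out, and voom with treat gave an adjusted p of 0.0586. With FGFRi replicate M2 left out, Hoxc5 was called as well (0.91, adjusted p = 0.0265). Hoxd9, Hoxc8 and Hoxd8 gave 0.28 ± 0.16, 0.27 ± 0.16 and 0.37 ± 0.18 (adjusted p = 0.293, 0.331 and 0.196). Both inhibitor groups shared set 4, and the DMSO 72 h libraries were the control of both inhibitors.

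FGFRi 24 h against DMSO 24 h crossed the sets, and 1 member was called (background 3.27%). Hoxc6 was at 21.9, 29.8, 30.4 and 31.4 CPM with FGFRi and 35.6, 42.0, 49.5 and 49.8 CPM with DMSO (-0.66 ± 0.17, adjusted p = 0.0119), and the call was lost without FGFRi replicate M5 (-0.55, adjusted p = 0.0784). Treatment and set cannot be told apart for this gene. Mtx2, a neighbour of HoxD, differed in the same comparison (55.4 against 89.9 CPM, -0.69 ± 0.13, adjusted p = 0.000472). Hoxd9, Hoxc8 and Hoxd8 gave -0.04 ± 0.16, -0.40 ± 0.15 and 0.12 ± 0.18 (adjusted p = 0.944, 0.124 and 0.812).

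Other markers moved with the inhibitors. All 6 endothelial genes were called lower with MEKi at 24 h and 5 of 6 at 72 h, with sums of 38.8 to 53.1 CPM with MEKi and 61.4 to 105.9 CPM with DMSO at 72 h. All 4 tested macrophage genes of 6 were called lower at 72 h with MEKi (15.6 to 24.7 CPM, against 32.4 to 96.4 CPM with DMSO) and with FGFRi (8.81 to 19.9 CPM). All 4 tested coelomic epithelium genes of 6 were called higher with MEKi at 72 h (503.6 to 547 CPM against 266.6 to 363.1 CPM). Of 4 tested foetal Leydig cell genes 3 were called higher with MEKi at 72 h (816 to 1284 CPM against 395 to 600 CPM). Of 6 Sertoli cell genes 1 was called higher and 2 lower with MEKi at 72 h against DMSO, and 5 lower in MEKi against FGFRi (558 to 764 against 910 to 1554 CPM). All 4 tested germ cell genes were called higher with MEKi at 24 h (242 to 454.5 CPM against 91.7 to 131 CPM). The part of these cells in the values of Hoxb9 and Hoxa10 was not tested. Of the cofactors, Pbx3 was higher with MEKi at 72 h (125.6 against 67.4 CPM, 0.89 ± 0.16, adjusted p = 8.44e-05). Of 10 tested genes of retinoic acid synthesis, breakdown and response, a pathway known to switch on Hox genes from the head end of a cluster, 3 were called higher and 1 lower with MEKi at 72 h, the lower being Cyp26b1, which breaks down retinoic acid (13.0 against 36.9 CPM, -1.50 ± 0.21, adjusted p = 1.09e-06).

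The other tested members were not called in any comparison. Their group means lay between 0.42 and 3.43 CPM for Hoxa2, 3.52 and 6.75 CPM for Hoxa3, 7.44 and 10.99 CPM for Hoxa5 and 6.82 and 13.7 CPM for Hoxa7. They lay between 1.81 and 6.92 CPM for Hoxb3, 2.25 and 4.37 CPM for Hoxb4, 0.64 and 4.14 CPM for Hoxb5 and 1.97 and 6.07 CPM for Hoxb7. In HoxC they lay between 6.14 and 13.5 CPM for Hoxc4. Hoxc9 had group means of 28.2 to 37.4 CPM in the uncultured and 24 h groups and of 16.6 to 25.1 CPM in the 72 h groups. Apart from FGFRi 24 h these were of different sets, so time and set cannot be told apart for the DMSO and MEKi groups. Both FGFRi groups were of set 4. With FGFRi, Hoxc9 lay between 20.71 and 37.15 CPM at 24 h and between 12.53 and 19.85 CPM at 72 h, without overlap. That difference was not tested.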

How the data were processed

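Bulk 3′ RNA-seq with UMIs was measured in sorted gonadal soma, and the authors deposited whole-number UMI counts per gene for 40 libraries. Per the study's methods they were made with scPipe and Rsubread on GRCm39 with GENCODE annotation, with the strand setting on in the study's code; the submitters' processing notes also name limma and edgeR. Total counts per library were 1380707 to 4836550. Members and gene lists were chosen with earlier results of these data known. Members are named, except 1 that is not reported here, with fold changes for those called and for the 3 with the highest mean CPM (Hoxd9, Hoxc8 and Hoxd8); other genes come from lists, with up to 4 values each. Counts of all 40 libraries were fitted in edgeR 4.0.16 (R 4.3.3) after filterByExpr by group, with TMM scaling, a mean per group and the quasi-likelihood test; a call needed an adjusted p under 0.05 and 1.5-fold. Voom with quality weights and treat (limma 3.58.1), DESeq2 1.42.0 and other alternatives were run, and scripts were tested on simulated data. GENCODE M39 names matched all 39 members by stable ID, although its release differs from the one used for counting. RefSeq promoter windows were found for 22 members.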

Additional observations from a re-analysis of the deposited data

Results flagged for a closer look

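In 230 groups of 4 values (23 tested members in 10 groups), 10 values lay far from the other 3, judged by the gap to the nearest value divided by the range. By chance about 1 in 20 groups is flagged, and the number found was not above that share. The Hoxd11 level of XY DMSO 24 h replicate M3 was 17.9 CPM, against 12.8 to 13.0 CPM in the others. Hoxa9 was at 9.42 CPM in XX uncultured replicate F5 (others 5.30 to 5.55 CPM) and at 8.16 CPM in XY MEKi 72 h replicate M4 (others 13.3 to 13.8 CPM). XY DMSO 72 h replicate M5 was high for Hoxa3 (8.98 CPM, others 5.24 to 5.47 CPM) and for Hoxb7 (6.48 CPM, others 3.48 to 3.81 CPM). Hoxa3 was at 0.778 CPM, a count of 2, in XY DMSO 24 h replicate M5 (others 5.17 to 5.72 CPM). Hoxa10 was at 0.478 CPM, a count of 1, in XY uncultured replicate M5 (others 3.48 to 3.98 CPM), and Hoxb4 at 0.405 CPM, a count of 1, in XY FGFRi 72 h replicate M4 (others 3.36 to 3.58 CPM). Hoxd3 had 0 counts in XX DMSO 72 h replicate F4 (others 2.68 to 3.13 CPM), and Hoxa2 was at 5.26 CPM in XX DMSO 24 h replicate F4 (others 0.791 to 1.45 CPM).

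The change of Hoxd10 over the first 24 h differed between XX and XY by an interaction test, by -1.38 on the log2 scale (edgeR, adjusted p = 0.0215). The XY libraries went from 6.16 to 19.6 CPM to 22.4 to 25.3 CPM, and the XX libraries from 6.18 to 12.4 CPM to 3.15 to 7.25 CPM. Hoxd10 was the 1 member of 23 called in this interaction, where 6.20% of all tested genes were called. As given above, the call was lost when some single libraries were left out, and voom with treat did not give it.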

How the results depend on the processing

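All 31 called differences kept their direction under each alternative and with each library left out, and the number of members called was within 1.5 times the reported number for the alternatives not named here. Tests against a 1.5-fold change are stricter by construction. With edgeR's glmTreat, 1 member was called between XX and XY before culture, 1 over the first 24 h in XY, and 0 in the interaction of sex and the first 24 h, with MEKi at 72 h and with FGFRi at 24 h. With voom and treat, 0 members were called before culture, 4 between XX and XY at 24 h and 3 at 72 h, and 0 over the first 24 h in XY, in its interaction, with MEKi at 72 h, with FGFRi at 24 h and between MEKi and FGFRi. Without a minimum fold change, 1 member was called over the first 24 h in XX and 1 with MEKi at 24 h. With no filter on low counts, 2 were called in the interaction over the first 24 h and 1 with FGFRi at 72 h, and with the total count as library size 1 was called with MEKi at 24 h; the cause was not tested. That scaling also moved the median log2 fold change of all genes over the first 24 h in XY to 0.16, a shift of 0.13, and the share of higher calls among all genes from 61.8% to 77.6%.

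With single libraries left out, 4 to 7 members were called between XX and XY before culture, 6 to 9 at 24 h and 5 to 7 at 72 h, 4 to 8 over the first 24 h in XY, 0 to 1 in XX and 0 to 2 in their interaction. It gave 0 to 2 members with MEKi at 24 h, 1 to 3 at 72 h, 0 to 1 with FGFRi at 72 h, 0 to 1 with FGFRi at 24 h, 1 to 2 between MEKi and FGFRi, and 0 in both interactions with 72 h. Values near 0 changed sign. Over the first 24 h in XX, Hoxd9 (-0.0067) was at 0.046 with the total count, 0.0042 with no filter, 0.0049 with a filter of 1 CPM in 4 libraries and 0.0036 with voom. With MEKi at 24 h it was at -0.018 with the total count. With a library left out, Hoxd9 ranged from -0.25 to 0.079 over the first 24 h in XX, from -0.24 to 0.11 in the sex interaction from 24 to 72 h, from -0.024 to 0.14 with MEKi at 24 h, from -0.063 to 0.16 with FGFRi at 72 h and from -0.12 to 0.062 with FGFRi at 24 h. Hoxd8 ranged from -0.085 to 0.37 over the first 24 h in XX, from -0.17 to 0.11 with MEKi at 72 h and from -0.047 to 0.24 between the MEKi effects. Hoxc8 ranged from -0.078 to 0.20 between XX and XY before culture, from -0.12 to 0.011 at 24 h and from -0.25 to 0.029 in the interaction over the first 24 h. Of the 268 uncalled pairs of member and comparison, 104 changed sign in some alternative.

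The labels give groups the same replicate numbers but do not say whether same-numbered libraries were paired. Deviations of same-numbered libraries from their group means correlated between -0.16 and 0.12 over genes. With so few libraries per group, these values cannot show whether the libraries had more than a number in common. With the replicate block, 1 member (Hoxc8) was called with MEKi at 24 h instead of 0, and Hoxd9 was at 0.12 over the first 24 h in XX. In XX DMSO 72 h, replicates F7, F8 and F11 had numbers that no other library had, so replicate F4 alone set that group in this fit. The block values between XX and XY at 72 h (-7.16 for Hoxd3, -2.09 for Hoxa9 and -1.78 for Hoxd11) therefore cannot show whether pairing matters.

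Depth limits the low members: 14 of 39 had counts but could not be tested, 29 passed a filter of 1 CPM in 4 libraries, and 18 had a count in all 40 libraries. Of the 10 members with the highest CPM, 8 were also among the 10 highest in CPM per kb.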
